A study of Homo sapiens with 12 samples.

Results

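IRF1, IRF2, IRF5 and IRF7 are interferon regulatory factors (IRFs) outside IRF3 and IRF9, and IRF2BP2 is a protein that binds IRF2. These 5 genes were taken by symbol from the 58288 genes listed in the deposited table, and all 5 were among the 15973 genes with enough signal to be tested. The RNA-Seq libraries came from FaDu, an established human head and neck squamous cell carcinoma line. STING WT and STING KO (STING-/-) cells were each left unirradiated (0 Gy) or irradiated (RT) on 4 days with 2 Gy a day, which gives 4 groups of 3 libraries. Both kinds of cell carried Cas9 and a guide RNA under drug selection, non-targeting in WT and aimed at STING in KO. For the figures that include this sequencing, the paper's methods name 1 guide of each kind in FaDu. A difference between the guides or the cell lines therefore cannot be told apart from STING loss. Below, STING loss stands for KO against WT cells. Whether the KO cells were grown from 1 clone, and how long after the last fraction RNA was collected, are not given in the sources used here. Nothing in the sources states that the 3 libraries of a group came from separate cultures, so p-values measure the spread between these libraries, which may be technical.

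IRFs share an amino-terminal DNA-binding domain that recognises repeats of GAAA, the core of the interferon-stimulated response element (ISRE). STING lies upstream of them: on binding cyclic dinucleotides it recruits the kinase TBK1, which phosphorylates IRF3, and IRF3 switches on interferon and other antiviral genes. IRF7, itself interferon-induced, amplifies that response. IRF1 is induced by interferon and through NF-kB and drives antigen presentation genes, IRF2 binds the same sites and often opposes it, IRF5 is best known for inflammatory cytokine genes in myeloid cells, and IRF2BP2 is a corepressor first found through its contact with IRF2.

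The sequence before the start of IRF1 is shown because it carries letters matching elements of factors that induce it, and a stretch before an internal start of IRF5 is shown because it carries the only match to a GAAA repeat in the windows searched. Sequences were taken from RefSeq (GRCh38.p14), which gave 1 promoter for IRF1, 2 for IRF2BP2 and 4 for IRF5 at alternative starts. IRF2 and IRF7 were not matched. The 250 bases before each start were searched on both strands for the ISRE core (GAAA repeated after any pair of bases), for the closer repeat GAAANGAAA, for the interferon-gamma activated site (GAS) TTCNNNGAA and for the NF-kB element by its usual consensus. Capitals mark a match.
IRF1, chr5:132490774-132491023, minus strand: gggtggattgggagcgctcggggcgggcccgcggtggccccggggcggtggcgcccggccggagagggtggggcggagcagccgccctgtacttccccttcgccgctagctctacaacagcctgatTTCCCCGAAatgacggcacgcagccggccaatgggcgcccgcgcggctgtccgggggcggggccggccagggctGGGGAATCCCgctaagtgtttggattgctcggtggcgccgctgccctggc
IRF5, chr7:128940570-128940669, plus strand, the 100 bases before the third start listed: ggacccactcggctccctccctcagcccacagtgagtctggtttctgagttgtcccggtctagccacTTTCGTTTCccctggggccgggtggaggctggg
In IRF1 the GAS letters lie 124 to 116 bases before the start and the NF-kB letters 50 to 41 bases before it. The IRF5 stretch lies inside the span of the IRF5 gene in GENCODE, and there the match to the closer repeat is on the opposite strand, 33 to 25 bases before the start. The matches do not overlap one another. Among 35116 RefSeq windows of the same length, 6.57% held the GAS letters, 5.21% the NF-kB consensus, 2.69% the closer repeat and 3.02% the ISRE core. No window of IRF2BP2 held any of these letters. A match of letters is a description only.

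The labels were first checked with TMEM173, which encodes STING. It was at 21.1 to 23.5 TPM (transcript abundance scaled to a fixed total per library) in unirradiated WT, 21.4 to 26.1 in irradiated WT, 5.18 to 6.96 in unirradiated KO and 6.35 to 7.41 in irradiated KO libraries. All 8 squamous epithelial markers (KRT5, KRT6A, KRT14, KRT17, TP63, EPCAM, CDH1 and SFN) were at 48.5 TPM or more in every library, and the leukocyte marker PTPRC reached at most 0.0894 TPM. Of 15 markers of leukocytes, fibroblasts, endothelium and erythroid cells, 5 were at 1 TPM or more in every library (CD68, CD14, COL1A1, VWF and CDH5). TPM sums to the same total in each library and keeps no depth, so the reads behind a value are unknown.

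Group means of the 5 genes ran from 8.52 to 66.1 TPM. TPM is corrected for transcript length, so levels can be set side by side. IRF2BP2 was the highest of the 5 genes, at 55.1 to 66.8 TPM over the 12 libraries, and was above IRF1 in all 12. IRF1 was above IRF2 in every library as well. IRF5 was below IRF2 in every library. The place of IRF7 differed between cells: it was below IRF2 in all 6 KO libraries, while in irradiated WT cells their means were 21.4 and 20.6 TPM. It was above IRF5 in 5 of 6 WT libraries and below it in 5 of 6 KO libraries. The spread between libraries of a group differed too. The residual SD on the log2(TPM + 1) scale was 0.057 for IRF2BP2, 0.13 for IRF2, 0.18 for IRF7, 0.22 for IRF1 and 0.27 for IRF5, against a median of 0.15 over all tested genes.

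**Figure D1:**
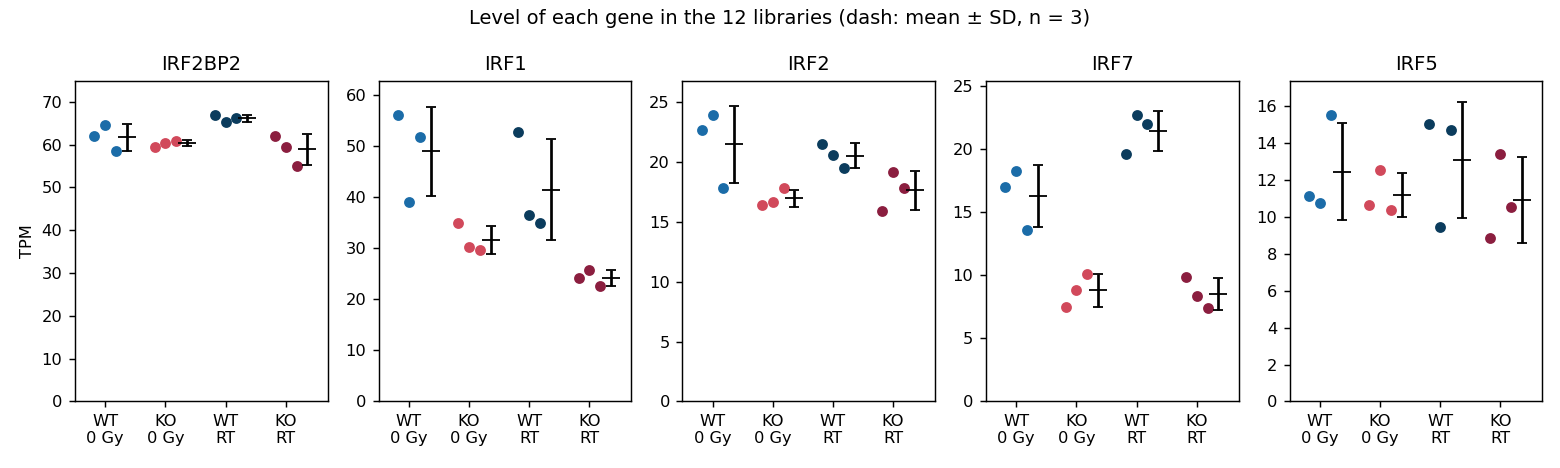
TPM of IRF2BP2, IRF1, IRF2, IRF7 and IRF5 (vertical axes, each from 0) in the 3 libraries of each group (points), with the mean and SD beside them. IRF7 and IRF1 libraries of KO cells lie below those of WT cells in both arms, while the IRF5 groups overlap.

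To ask how the IRFs differed with STING loss, KO was compared with WT separately in unirradiated and in irradiated cells. The arms share no library but use the same WT and KO cells, so they are not independent tests of the genotype. Log2 fold changes and their adjusted p-values are from limma on log2(TPM + 1), adjusted over all 15973 genes, with a threshold of 0.05. The spread of each gene was estimated from all 12 libraries together, so the p-values of the arms are not independent. All 5 genes had a lower mean in KO than in WT cells in both arms. The share of all tested genes doing so is not given here. In unirradiated cells the log2 fold change of IRF2BP2 was near the middle of all tested genes, with 47.4% of them lower. Its sign changed without unirradiated WT replicate 2, and that of IRF5 without unirradiated WT replicate 3. Of the 5, 1 (IRF7) was past the threshold in unirradiated cells, where 1.73% of all tested genes were (1.26% downward), and 2 (IRF7 and IRF1) in irradiated cells, where 3.59% were (2.66% downward). In unirradiated cells 3 of the 5 genes had no overlap between KO and WT libraries, against 20.6% of all tested genes (12.1% with KO lower). In irradiated cells 4 did, against 24.1% (14.5% with KO lower). IRF1, IRF2 and IRF7 were without overlap and lower in KO in both arms, as were 5.23% of all tested genes. The median log2 fold change of the 5 was -0.31 and -0.23 in the unirradiated and irradiated arms, against -0.021 and -0.017 over all tested genes. Since the 5 genes were chosen with earlier results of these data known, these counts and medians are a description only.

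IRF7 (ENSG00000185507.19), the amplifier of the interferon response, is encoded on GRCh38 chromosome 11 (612553 to 615999, minus strand). In unirradiated cells it was at 17.0, 18.3 and 13.6 TPM in WT and 7.52, 8.81 and 10.1 TPM in KO libraries. The highest KO library was below the lowest WT library, and the KO mean was 0.541 times the WT mean (log2 fold change -0.82, SE 0.14, limma adjusted p = 0.0118). The irradiated libraries held 19.6, 22.7 and 22.0 TPM in WT and 9.85, 8.34 and 7.38 TPM in KO cells. There KO was at 0.398 times WT (log2 fold change -1.24, SE 0.14, limma adjusted p = 5.3e-04), and the groups again did not overlap. The exact two-sided permutation test gave p = 0.1 in each arm, the smallest that 3 libraries against 3 allow. In the unirradiated arm IRF7 stood near the threshold. Its limma adjusted p was 0.0520, 0.0545, 0.0511 and 0.0510 without unirradiated WT replicate 1, WT replicate 2, KO replicate 1 and KO replicate 2, and 0.0907 when only the 6 unirradiated libraries were fitted. In the irradiated arm it stayed under 0.05 with any library left out, reaching at most 0.00422. In bulk RNA, fewer cells expressing a gene and less RNA per cell cannot be told apart.

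IRF1 (ENSG00000125347.13; chromosome 5, 132481609 to 132490798, minus strand), the activator of antigen presentation genes, was at 55.9, 39.1 and 51.7 TPM in unirradiated WT and 34.8, 30.2 and 29.7 TPM in unirradiated KO libraries. The WT libraries spread widely, with replicate 2 closest to KO, yet none overlapped with KO. The KO mean was 0.646 times the WT mean, a log2 fold change of -0.60 (95% interval -0.97 to -0.24) that did not pass the threshold (limma adjusted p = 0.116, unadjusted 0.00403). In irradiated cells IRF1 was at 52.7, 36.5 and 34.9 TPM in WT and 24.2, 25.8 and 22.6 TPM in KO libraries. Here WT replicate 1 stood above the other WT libraries, and all 3 were above KO. IRF1 fell with STING loss in this arm, to 0.584 times the WT mean (log2 fold change -0.73, SE 0.16, limma adjusted p = 0.0376). That call did not survive in 9 of 12 leave-one-out fits, with limma adjusted p up to 0.124. It held without unirradiated WT replicate 1 or 2 and without irradiated WT replicate 3. It was lost with no filter on low values (0.0724) and with only the 6 irradiated libraries (0.107).

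IRF2 (ENSG00000168310.10; chromosome 4, 184387713 to 184474580, minus strand), which competes with IRF1 for the same sites, was at 22.7, 23.9 and 17.9 TPM in unirradiated WT and 16.4, 16.7 and 17.8 TPM in unirradiated KO libraries. The groups were next to each other without overlapping, since WT replicate 3 was at the level of the highest KO library. The log2 fold change was -0.31 (95% interval -0.55 to -0.083, limma adjusted p = 0.194), and without WT replicate 3 it was -0.44 with an adjusted p of 0.0424. In irradiated cells IRF2 was at 21.5, 20.6 and 19.5 TPM in WT and 15.9, 19.2 and 17.8 TPM in KO libraries, again without overlap. That difference was -0.21 (95% interval -0.44 to 0.020, limma adjusted p = 0.330).

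IRF2BP2 (ENSG00000168264.10; chromosome 1, 234604269 to 234609525, minus strand), the IRF2 corepressor, was at 62.0, 64.6 and 58.4 TPM in unirradiated WT and 59.5, 60.5 and 60.9 TPM in unirradiated KO libraries. These groups overlapped, and the log2 fold change of -0.031 had a 95% interval of -0.15 to 0.088. In irradiated cells it was at 66.8, 65.3 and 66.3 TPM in WT and 62.1, 59.5 and 55.1 TPM in KO libraries, which did not overlap. The difference there was small, -0.17 (95% interval -0.29 to -0.047), and did not pass the threshold (limma adjusted p = 0.132).

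IRF5 (ENSG00000128604.19; chromosome 7, 128937612 to 128950035, plus strand), the inflammatory cytokine regulator, was at 11.1, 10.7 and 15.5 TPM in unirradiated WT and 10.6, 12.6 and 10.4 TPM in unirradiated KO libraries. In irradiated cells it was at 15.1, 9.47 and 14.7 TPM in WT and 8.84, 13.4 and 10.5 TPM in KO libraries. The groups overlapped in both arms. The log2 fold change was -0.13 (95% interval -0.57 to 0.31) in unirradiated and -0.23 (-0.67 to 0.21) in irradiated cells. Each interval holds values of both signs, so with this spread the direction of a change was not established. Without unirradiated WT replicate 3 the unirradiated value was 0.025. The irradiated value was -0.43 without WT replicate 2 and -0.10 without KO replicate 1.

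**Figure D2:**
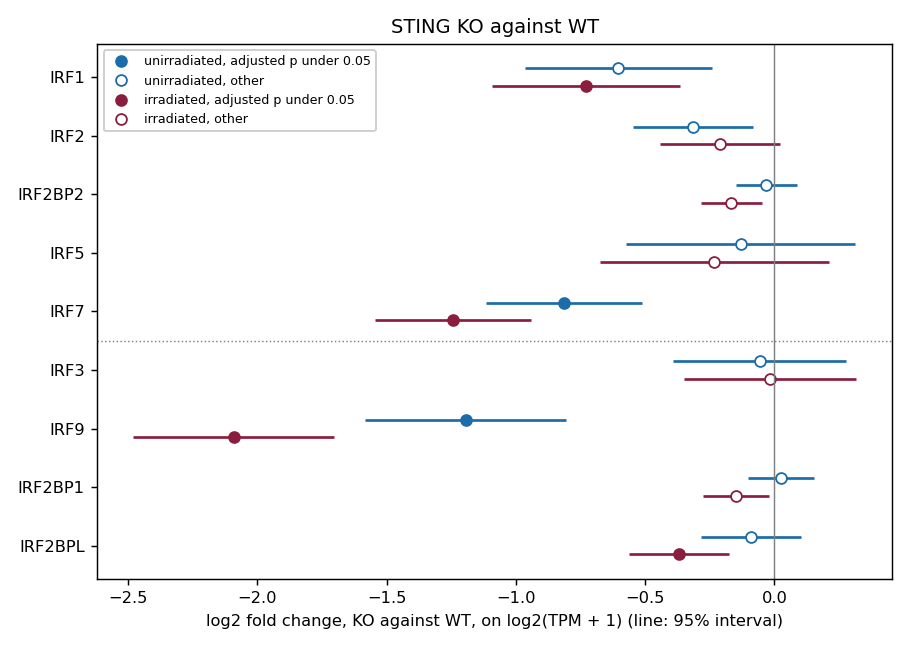
Log2 fold change of KO against WT on log2(TPM + 1) (horizontal axis) for the 5 genes (above the dotted line) and 4 other tested family genes (below it), in unirradiated and irradiated cells. Lines are 95% intervals from limma and filled points have an adjusted p under 0.05. IRF7 and IRF9 are filled in both arms, and IRF3 is filled in neither.

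The balance of IRF1 to its competitor IRF2 was expressed as the ratio of their TPM within each library, which does not depend on scaling between libraries. Without radiation this ratio came to 2.47, 1.63 and 2.89 for the WT libraries and to 2.12, 1.81 and 1.67 for the KO libraries. These groups overlapped (difference of -0.29 on the log2 scale, two-sided exact permutation p = 0.4), and the difference was -0.52 without WT replicate 2 and -0.11 without WT replicate 3. With radiation it came to 2.45, 1.77 and 1.79 for WT and to 1.52, 1.34 and 1.27 for KO, with every KO library lower (difference of -0.53, exact permutation p = 0.1, the smallest possible). Within KO cells, irradiated libraries were also lower than unirradiated ones without overlap (-0.44, exact permutation p = 0.1), and within WT cells they overlapped (-0.20, exact permutation p = 0.6), with -0.43 without unirradiated WT replicate 2 and -0.020 without unirradiated WT replicate 3. Both comparisons without overlap use the irradiated KO libraries, where the ratio was lowest.

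**Figure D3:**
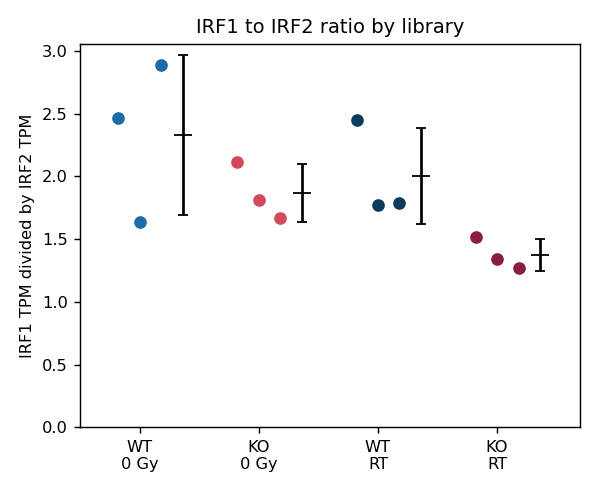
IRF1 TPM divided by IRF2 TPM (vertical axis, from 0) in each library of the 4 groups (points), with the mean and SD beside them (n = 3). The 3 irradiated KO libraries, at 1.27 to 1.52, lie below all others.

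The response to radiation was examined within WT and within KO cells. These comparisons share libraries with the KO comparisons above, so they are not independent of them. Of the 5 genes, 0 passed the threshold in either cell type by limma, where 3.74% of all tested genes did in WT and 3.69% in KO cells. IRF7 in WT cells and IRF1 in KO cells, 1 gene each, had an unadjusted p under 0.05, as did 18.2% and 18.1% of all tested genes. The libraries did not overlap for 2 of the 5 genes in WT (24.8% of all tested genes, 14.7% higher after radiation) and 1 in KO cells (24.3%, 10.6% lower after radiation).

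IRF7 was higher in all 3 irradiated than in all 3 unirradiated WT libraries, with means of 21.4 and 16.3 TPM (ratio 1.32, log2 fold change 0.39, 95% interval 0.083 to 0.69, limma adjusted p = 0.168). In KO cells its means were 8.52 and 8.80 TPM and the libraries overlapped (log2 fold change -0.042, 95% interval -0.34 to 0.26). Tested as an interaction, the radiation effect in KO minus that in WT was -0.43 (SE 0.19, 95% interval -0.85 to 0.00033), with an unadjusted limma p of 0.0502 and an adjusted p of 0.752, so a different response of IRF7 in KO and WT cells was not established. IRF1 had a lower mean after radiation in both cell types. In KO cells the 3 irradiated libraries lay below the 3 unirradiated ones (ratio of means 0.766, log2 fold change -0.37, 95% interval -0.73 to -0.0061, limma adjusted p = 0.267). In WT cells they overlapped (ratio 0.847, log2 fold change -0.24, limma adjusted p = 0.490), and the value was -0.43 without irradiated WT replicate 1 and -0.14 without irradiated WT replicate 3. IRF2BP2 was slightly higher in all irradiated than in all unirradiated WT libraries (ratio 1.07, log2 fold change 0.10, limma adjusted p = 0.367), a value of 0.062 without unirradiated WT replicate 3. IRF2 and IRF5 overlapped between irradiated and unirradiated libraries in both cell types, with log2 fold changes between -0.052 and 0.057. In the same interaction test, the limma adjusted p of IRF1, IRF2, IRF2BP2 and IRF5 lay between 0.826 and 0.968, so that 0 of the 5 genes passed by limma, where 0.0188% of all tested genes did. At an unadjusted p under 0.05 the count was also 0, with 6.61% of all tested genes there, but IRF7 was next to that limit. Its unadjusted p was 0.0466 with median-of-ratios factors, 0.0329 with quantile normalization and 0.0224 to 0.120 with a library left out, and its limma adjusted p was never below 0.621 under any alternative.

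Ordered by mean, IRF7 ran from irradiated KO and unirradiated KO, which differed by less than their SD, to unirradiated WT and then irradiated WT, each step without overlap. IRF1 ran from irradiated KO through unirradiated KO and irradiated WT to unirradiated WT, and only the last step, within WT cells, was smaller than the SD. For IRF2 the step between irradiated KO and irradiated WT alone exceeded the SD, and for IRF2BP2 only the step up to irradiated WT did. No step of IRF5 did. The summed markers of some other cell types were also higher after radiation. The summed level of the 3 endothelial markers was 11.5 to 13.9 TPM in unirradiated and 18.3 to 18.6 TPM in irradiated WT libraries, and 13.0 to 15.9 and 19.9 to 23.9 TPM in KO libraries, most of it CDH5, while PECAM1 was at most 0.0989 TPM. The 5 leukocyte markers summed to 18.9 to 25.2 and 27.6 to 34.2 TPM in WT and to 18.9 to 28.3 and 20.6 to 28.1 TPM in KO libraries. For the 4 fibroblast markers these sums were 6.68 to 9.04 and 6.40 to 9.34 TPM in WT libraries. In KO libraries they were 6.40 to 7.117 and 7.12 to 7.66 TPM. The 3 erythroid markers summed to at most 0.474 TPM. In irradiated cells the endothelial sum was also higher in every KO than in every WT library, while the leukocyte sums of KO and WT overlapped. IRF7 and IRF1 passed the threshold for STING loss in that arm. In unirradiated cells, where IRF7 also passed, both the endothelial and the leukocyte sums of KO and WT overlapped. The part of these markers in the radiation and STING values was not tested.

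**Figure D4:**
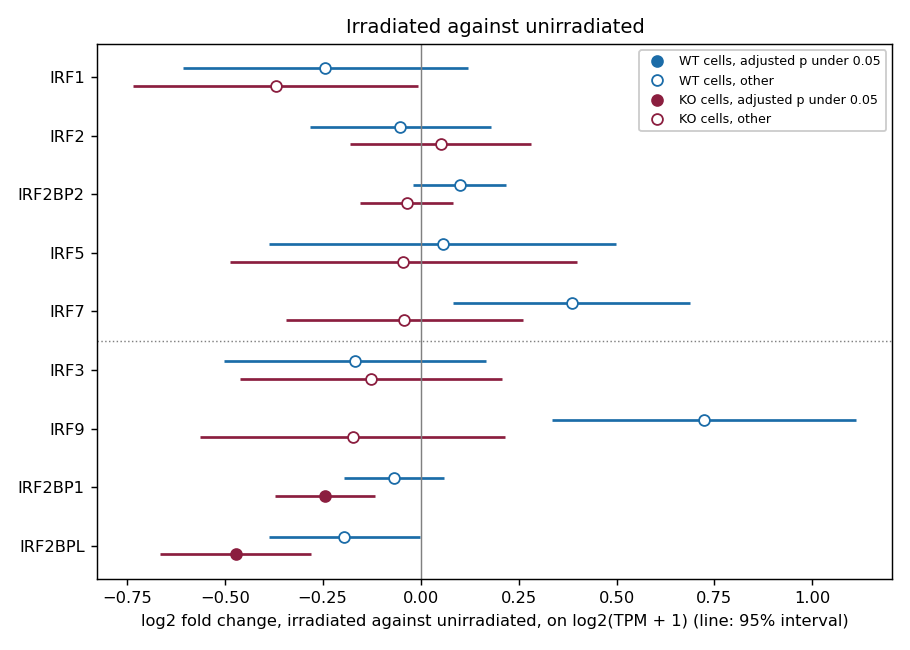
Log2 fold change of irradiated against unirradiated cells on log2(TPM + 1) (horizontal axis) for the same genes, in WT and KO cells. Lines are 95% intervals from limma and filled points have an adjusted p under 0.05. No point of the 5 genes above the dotted line is filled, and IRF7 in WT cells has an interval of 0.083 to 0.69.

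The other members of the family gave a frame for these values. IRF4 and IRF8, which act mainly in blood cells, were too low, at no more than 0.104 and 1.24 TPM. IRF9, the DNA-binding subunit of the interferon-activated complex ISGF3, fell with STING loss, from a mean of 48.6 to 20.6 TPM in unirradiated cells (log2 fold change -1.19, limma adjusted p = 0.00574) and from 80.9 to 18.3 TPM in irradiated cells (-2.09, adjusted p = 7.6e-05). IRF3, the direct target of TBK1, had means of 48.1 to 54.3 TPM over the 4 groups, with log2 fold changes of -0.057 and -0.017 for KO against WT.

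Among the IRF2-binding proteins, the paralogs of IRF2BP2 fell with radiation in KO cells. IRF2BPL went from 113.6 to 81.6 TPM (log2 fold change -0.47, SE 0.087, limma adjusted p = 0.0173) and IRF2BP1 from 15.3 to 12.8 TPM (-0.24, SE 0.058, adjusted p = 0.0472). In WT cells their changes were -0.20 (adjusted p = 0.266) and -0.069 (adjusted p = 0.596), and the interaction was not past the threshold for either (limma adjusted p = 0.752 and 0.757). IRF2BPL also fell with STING loss in irradiated cells (-0.37, limma adjusted p = 0.0463). These calls were near the threshold. With each library left out in turn, the radiation calls in KO cells held in 9 of 12 fits for IRF2BPL and 1 of 12 for IRF2BP1, and the KO call of IRF2BPL in 2 of 12. For IRF2BP2 itself the radiation value in KO cells was -0.035 (95% interval -0.15 to 0.084).

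Genes acting before and after the IRFs were described from lists compiled from general knowledge, with earlier results of these data known. Counts past the limma threshold and medians of log2 fold changes are given. Among all tested genes 1.26% fell and 0.463% rose with STING loss in unirradiated cells, 2.66% and 0.927% in irradiated cells, and 1.5% fell and 2.24% rose with radiation in WT and 1.7% and 2.0% in KO cells. The medians of all tested genes were 0.017 and 0.019 for radiation in WT and KO cells and -0.0024 for the interaction. An unadjusted p under 0.05 was found for 14.3% and 17.9% of all tested genes for STING loss in unirradiated and irradiated cells, 18.2% and 18.1% for radiation in WT and KO cells and 6.61% for the interaction. Unless a smaller number is given, a call from STING loss named in the following held in all 12 fits that left out a library. Of those calls, fitting only the groups compared lost IFIH1, TAP1 and TRIM21 in unirradiated and XAF1 in irradiated KO cells. Of 19 tested sensing adaptors and kinases upstream of IRFs, 3 fell in unirradiated KO cells (median -0.033). These were TMEM173 itself, the RNA sensor DDX58 (RIG-I) from 39.6 to 4.25 TPM and the RNA sensor IFIH1 (MDA5) from 23.5 to 13.8 TPM. The same number, again these 3, fell in irradiated cells (median -0.070). DDX58 rose with radiation in WT cells (log2 fold change 0.75), and 0 of the list passed in KO cells by limma (2 at an unadjusted p under 0.05). The 15 receptors, JAKs and factors that induce IRF1 and IRF7 had medians of 0.035 and -0.012 for KO in unirradiated and irradiated cells. IRF9, which is on this list, fell in both arms, and STAT2, its partner in ISGF3, fell in irradiated cells (-0.38, adjusted p = 0.0484), in a call that held in 3 of 12 leave-one-out fits. By limma 0 passed for radiation in either cell type, with 2 in WT and 1 in KO cells at an unadjusted p under 0.05. Of 13 negative regulators of IRF signalling, 1 fell in unirradiated KO cells (median -0.034), TRIM21, a ubiquitin ligase for IRFs, by 0.46 on the log2 scale. USP18, which restrains the interferon receptor, fell with it in irradiated KO cells (-0.77), where the median was -0.054. With radiation TNFAIP3, an NF-kB feedback gene, rose by 0.69 in WT and 0.54 in KO cells while SOCS3, a JAK inhibitor, fell by 0.33 and 0.42, and ATF4 fell by 0.25 in KO cells, with list medians of 0.030 and -0.044.

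Interferon genes themselves were nearly silent. Of 22 interferon ligand genes, 18 were listed at 0 in every library, IFNB1 and all IFNA genes searched among them, and the interferon lambda genes IFNL1 and IFNL2 reached at most 2.19 and 0.471 TPM. The only one tested was IFNE, an epithelial interferon, whose log2 fold change lay between -0.21 and 0.25 over the KO and radiation comparisons without passing the threshold by limma.

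Of 22 tested IRF1 targets, 5 fell in unirradiated KO cells and 6 in irradiated KO cells, with medians of -0.24 and -0.29. In both arms they include XAF1, a pro-apoptotic factor, from 4.84 to 0.528 TPM in unirradiated cells, BST2 (tetherin) from 22.7 to 6.60 TPM, the immunoproteasome subunit PSMB9 from 42.2 to 26.6 TPM and the peptide transporter TAP1 from 40.8 to 27.2 TPM. PSMB8, another immunoproteasome subunit, completes the 5 in unirradiated cells, and CXCL11, an interferon-induced chemokine, is added in irradiated cells (-1.48). CXCL11 was near the floor, at means of 0.502 TPM in unirradiated WT, 2.03 in irradiated WT and 0.0925 in irradiated KO cells. It passed the filter through irradiated WT, the group where it was highest. Its calls for KO and for radiation both use that group, so they are a description only. In unirradiated cells the call of PSMB8 held in 2 and that of XAF1 in 8 of 12 leave-one-out fits. Radiation moved 1 list gene up, CXCL11 (1.02), and 1 down, TNFSF10 (TRAIL, -0.59), in WT cells (median -0.076). In KO cells 3 fell (median -0.089), TNFSF10 (-0.68), PSMB10 (-0.44) and PSMB9 (-0.37). The pair of lists for IRF1 and for IRF3 and IRF7 share TNFSF10 and CXCL10.

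Of 11 tested IRF3 and IRF7 targets, 9 fell in KO cells in each arm, with medians of -2.37 and -3.00, the furthest from 0 of the 10 lists. Since the lists were compiled with earlier results known, this rank is a description only. Among the genes that fell were the interferon-induced antiviral genes OASL, IFIT2 and IFIT3 and the chemokine CCL5, which went from 8.30 to 0.138 TPM in unirradiated cells. RSAD2 (viperin) averaged 11.9 TPM in irradiated WT cells and was listed at 0 in the 3 irradiated KO libraries. With radiation, 7 rose and TNFSF10 fell in WT cells (median 0.57), RSAD2 by 0.76 and IFIT2 by 0.72, and in KO cells TNFSF10 alone passed, downward (median -0.056). In the interaction test 0 of the 11 were past the threshold by limma, and 7 had an unadjusted p under 0.05 (median -0.60). Many of these genes are also known targets of ISGF3. Beside the list medians, IRF7 itself had log2 fold changes of -0.82 and -1.24.

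Of 7 tested IRF5 targets, 2 fell in unirradiated KO cells (median -0.15). These were CCL5, also on the list of IRF3 and IRF7 targets, and CDKN1A, the p53-induced cell cycle inhibitor p21, from 26.4 to 15.8 TPM. IL6, an inflammatory cytokine, joined them in irradiated KO cells (-1.09), where the median was -0.17. Radiation raised IL6 (1.64) and CDKN1A (0.78) in WT cells (median 0.19), and in KO cells it raised CDKN1A (0.60) and lowered BAK1 (-0.25), with a median of 0.30. Of the 5 IRF2 targets, 0 passed by limma for KO in unirradiated cells (median -0.097, 0 at an unadjusted p under 0.05), in irradiated cells (median -0.21, 2 unadjusted) or for radiation in WT cells (median -0.10, 1 unadjusted), and ERAP1, a peptide-trimming protease, fell with radiation in KO cells (-0.34, median -0.13). Of 6 tested partners and targets of IRF2BP2, 0 passed for KO in unirradiated cells by limma (median -0.17, 2 at an unadjusted p under 0.05). In irradiated cells 2 fell (median -0.18), IRF2BPL and VEGFA, the vascular growth factor (-0.55, limma adjusted p = 0.0331). These calls held in 2 of 12 leave-one-out fits for IRF2BPL and in 7 of 12 for VEGFA. NFATC2, a factor that IRF2BP2 represses, rose with radiation in WT (0.77) and KO cells (0.86), with list medians of -0.041 and -0.063. Of the radiation calls in these lists, those of CDKN1A, CXCL11, DDX58, IFIT1, IFIT2, IL6, ISG15 and TNFAIP3 in WT and of CDKN1A and TNFAIP3 in KO cells held in all 12 leave-one-out fits, and the others in fewer. Some of these were lost under other settings. Fitting only the groups compared lost DDX58, IFIT1 and IFIT2 in WT and TNFAIP3 in KO cells. A pseudocount of 0.1 lost CXCL11, and a filter at a mean TPM of at least 5 lost CXCL11 and IL6.

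**Figure D5:**
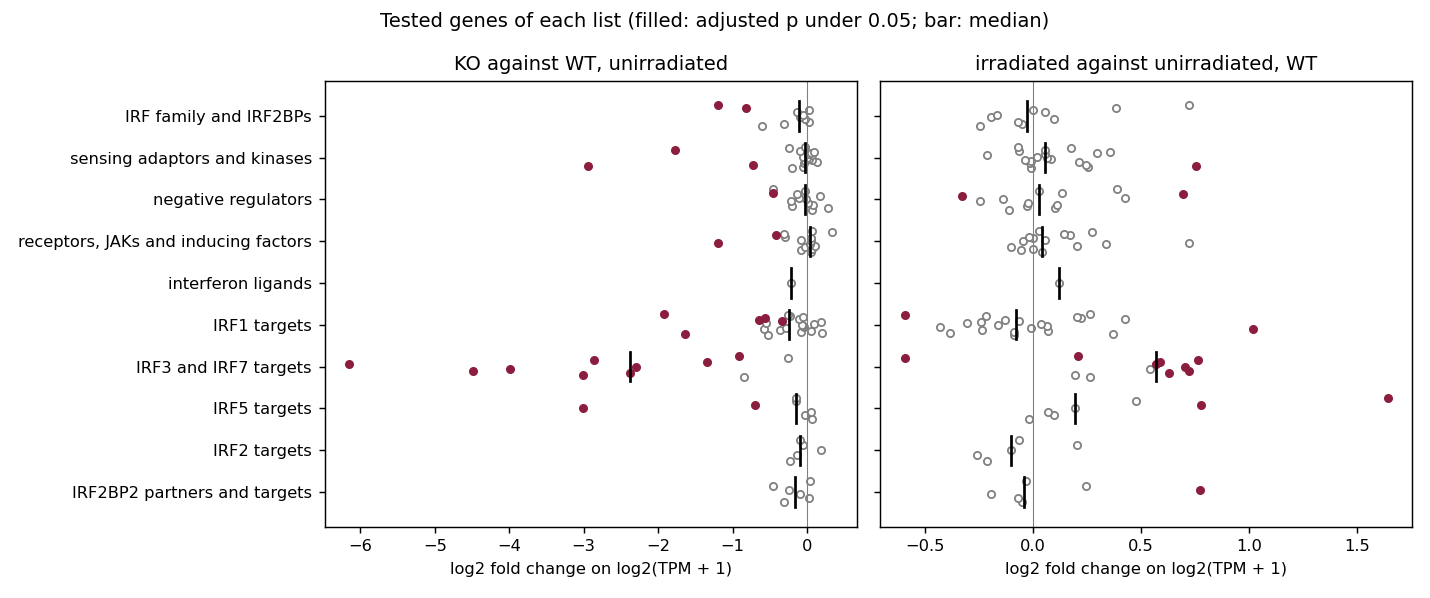
Log2 fold change on log2(TPM + 1) (horizontal axes) of every tested gene of each list, for KO against WT in unirradiated cells (left) and for radiation in WT cells (right). Filled points have a limma adjusted p under 0.05 and black bars are list medians. The list of IRF3 and IRF7 targets has a median of -2.37 on the left and 0.57 on the right.

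The tested genes next to the IRFs did not pass the threshold in any comparison, and most of the annotated neighbours were too low to be tested. Among those within 50 kb, PHRF1 lies 331 bases from IRF7 on the opposite strand and was at 37.1 to 41.3 TPM in all libraries (log2 fold change -0.013 for KO in unirradiated and -0.052 in irradiated cells). DEAF1, MIR210HG and RASSF7, the other tested neighbours of IRF7, had limma adjusted p of 0.645 or more for KO in both arms. C5orf56 overlaps IRF1 on the opposite strand and was at 3.37 to 5.74 TPM, far below IRF1. AL160408.2 overlaps IRF2BP2 on the opposite strand at 0.679 to 2.25 TPM. AC099343.3, 222 bases from IRF2, was at 0.447 to 1.58 TPM, and TNPO3 and KCP near IRF5 had log2 fold changes between -0.066 and 0.083 for KO. No source used here says if strand was used in counting reads, so reads of overlapping genes may be shared.

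Genes among the most like each IRF over the 12 libraries were found by Pearson's r of log2(TPM + 1), given without a test, since the 12 libraries fall into 4 groups and share their normalization. For IRF7 these were PPM1K (r = 0.982), DHX58 (LGP2, a RIG-I-like receptor, 0.982), TAP1 (0.982) and PARP9 (0.974), all past the limma threshold and lower in KO in both arms, and the most opposite were LGR4 (-0.965) and DCAF6 (-0.958). For IRF1 they were GALNT7 (0.958), SND1 (0.936), AL118516.1 (0.920) and EIF4H (0.914), with LYRM7 (-0.929) and ABCC2 (-0.916) at the other end. For IRF2 they were SPEF2 (0.944), NOMO3 (0.915), which has near-identical copies, AC006333.2 (0.908), BISPR (0.901) and NEDD1 (0.899), against ST6GALNAC1 (-0.934) and SUMF1 (-0.902). For IRF2BP2 they were MARVELD1 (0.933), LHX5 (0.923), PLAGL2 (0.906), TRMT10C (0.903) and NR1D1 (0.900), against MIR3652 (-0.909) and KIF23 (-0.902). IRF5 had the weakest likeness, with RPN1 (0.889), SCARNA13 (0.847), AC026271.1 (0.821), AC116407.2 (0.812) and RABGEF1 (0.804), against SNORA13 (-0.899) and DIS3 (-0.882). Several of the named genes were low, among them ST6GALNAC1, MIR3652, LHX5 and SNORA13, at most 1.70, 2.32, 2.76 and 2.77 TPM. Nor does r give the size of a change: EIF4H had log2 fold changes of -0.037 and -0.080 for KO in unirradiated and irradiated cells.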

How the data were processed

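Polyadenylated RNA from FaDu cells was sequenced as paired ends. The authors deposited TPM per gene and library, 58288 genes in 12 libraries, each summing to the same total. The submitters' processing notes name HISAT2, StringTie, DESeq2 and hg38. Versions, annotation and strand setting are not given in the sources used here. The deposited columns use other cell names than the labels: NT2 was read as the non-targeting control (WT) and A63 as STING KO, and TMEM173 was lower in every A63 column.

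Genes reaching 1 TPM in at least 3 libraries (15973) were kept, and log2(TPM + 1) was fitted with 4 group means (limma 3.58.1, R 4.3.3; eBayes with trend, 8 residual degrees of freedom), with Benjamini-Hochberg adjustment over all of them. The authors used DESeq2, a count method, which TPM does not allow. The pseudocount understates the change of low genes. The code was tested on simulated data. Single values were compared with two-sided exact permutation tests (scipy 1.17.1). Coordinates are from GENCODE release 29 on GRCh38, and IRF7 matched there under a later version of its identifier. The 5 genes and the gene lists were chosen with earlier results of these data known.

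Genes were named by rule: TMEM173, the 5 genes, the rest of the IRF family, up to 4 genes past the threshold per list and comparison, the 5 genes with the highest and the 2 with the lowest correlation, and tested genes within 50 kb. Markers, interferon ligands not tested and overlapping genes are named beside them, and the order of IRF7 and IRF5 was examined after their values were seen. Alternatives were another pseudocount, other filters, median-of-ratios factors, quantile normalization, no trend, a replicate block, only the groups compared, and each library left out. Results for some genes under this rule are not reported here. Same-numbered libraries did not deviate together.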

Additional observations from a re-analysis of the deposited data

How the results depend on the processing

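The direction of all 25 effects of the 5 genes (5 comparisons) was kept with another pseudocount, filter or scaling, without the trend and with the replicate block, as was that of the 20 other than the interaction with only the groups compared. Of 495 member values over all alternatives 461 kept direction and side of the threshold, and all 17 that changed sign left out a library and were not called. For IRF1 in irradiated KO cells (-0.73) the adjusted limma p was 0.0724 with no filter and 0.107 with only the groups compared, and for IRF7 in unirradiated KO cells (-0.82) it was 0.0907 with only the groups compared. Fitting only those groups called 103 and 252 genes for KO (unirradiated and irradiated) and 166 and 195 for radiation (WT and KO). The numbers did not pair the libraries (correlations of deviations -0.0602 to 0.0641), and the replicate block called 378 genes for KO in irradiated cells, 315 and 359 for radiation in WT and KO cells and 1 for the interaction. The interaction had 7 calls with no filter and 1 without the trend. Fitting only the groups compared uses 6 libraries, and the cause of the other changes was not tested.

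With each library left out, IRF1 ranged from -0.84 to -0.55 for KO in irradiated cells, -0.43 to -0.14 for radiation in WT cells and -0.23 to 0.057 for the interaction. IRF2 ranged from -0.44 to -0.24 for KO in unirradiated cells, and for radiation from -0.17 to 0.027 in WT and -0.0082 to 0.12 in KO cells, and from 0.024 to 0.22 for the interaction. IRF2BP2 ranged from -0.069 to 0.0019 for KO in unirradiated cells, 0.062 to 0.13 and -0.074 to 0.011 for radiation in WT and KO cells and -0.17 to -0.089 for the interaction. IRF5 ranged from -0.22 to 0.025 and -0.43 to -0.10 for KO in unirradiated and irradiated cells, -0.051 to 0.26 and -0.19 to 0.085 for radiation in WT and KO cells, and -0.30 to 0.029 for the interaction. IRF7 ranged from -0.93 to -0.72 for KO in unirradiated cells and -0.14 to 0.051 for radiation in KO cells. The IRF1 to IRF2 ratio (log2) ranged from -0.52 to -0.11 and -0.61 to -0.38 for KO in unirradiated and irradiated cells and from -0.43 to -0.020 and -0.52 to -0.34 for radiation in WT and KO cells. Counts of called genes ranged from 172 to 292 and 313 to 542 for KO (unirradiated and irradiated), 242 to 526 and 268 to 553 for radiation (WT and KO) and 1 to 9 for the interaction. The depth behind TPM is unknown, so no counting error could be given.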
